A study of Mus musculus with 24 samples.

Results

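Primary hepatocytes lacking NEMO were set directly against primary hepatocytes lacking KEAP1, on 3 arrays a genotype, which are 6 of the 24 arrays of the series. The 6 were chosen by their labels alone, and the main fit of the contrast used them and no others. NEMO knockout hepatocytes (NEMOΔhepa) came from mice with a floxed NEMO gene, and KEAP1 knockout hepatocytes (KEAP1Δhepa) from mice with a floxed KEAP1 gene. Both lines carried the Alfp-Cre transgene, driven by regulatory elements of the albumin and alpha-fetoprotein genes, and the labels call the deletions hepatocyte-specific. A further 2 hepatocyte groups of 3 arrays each are shown beside them: NEMO and KEAP1 double knockout (NEMOΔhepa/KEAP1Δhepa) and control cells with a floxed NEMO gene (NEMOf/f). No KEAP1-floxed control without deletion was used here. Whole livers of both single knockouts, again 3 arrays each, served for comparison. The labels give the mice as males aged 8 weeks. Hepatocytes were isolated by collagenase perfusion, left to attach in serum-containing medium until the following day and given new medium. The labels number the arrays of a group but do not say whether any liver and hepatocyte array share an animal.

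Ikbkg encodes NEMO, the non-catalytic member of the IKK complex that frees NF-kB from its inhibitors, and loss of NEMO in hepatocytes is known to cause hepatocyte death, compensatory proliferation and chronic liver disease in mice. KEAP1 is the adaptor that hands NRF2, a transcription factor and the product of Nfe2l2, to a ubiquitin ligase for destruction. Without KEAP1, NRF2 accumulates and drives genes for glutathione synthesis, reduction of quinones and carbonyls, NADPH supply and export of conjugates.

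All values are log2 signal after RMA, and a difference is the NEMO mean minus the KEAP1 mean, so that a positive value means higher in NEMO knockout hepatocytes and 1 unit is a doubling of the signal. Genes were called at an adjusted p under 0.05 (limma, Benjamini-Hochberg over 18820 genes). Of these genes, 1464 differed (7.78%), 757 being higher (4.02%) and 707 lower (3.76%) in NEMO than in KEAP1 knockout hepatocytes. The balance turned with arrays centred on their medians (705 higher, 840 lower) and with a minimum mean of 4 (773 higher, 828 lower). An unadjusted p under 0.05 was reached by 20.4% of the genes. Among the called genes, 281 were higher and 107 were lower by at least 1 log2 unit. Beyond 2 units there were 67 higher and 24 lower. On the first principal component of the 6 arrays, which held 51.3% of their variance, NEMO arrays lay between 22.4 and 27.8 and KEAP1 arrays between -27.8 and -24.0.

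The hepatocyte label held against its markers: the summed level of 13 hepatocyte markers was 16.24 to 16.27 in NEMO and 16.13 to 16.19 in KEAP1 knockout hepatocytes, and Alb, which encodes albumin, differed by 0.04 (adjusted p = 0.768). Markers of other liver cells were present too. Those of stellate cells and fibroblasts (17 genes) summed to 11.01 to 11.29 in NEMO and 9.77 to 9.99 in KEAP1 knockout hepatocytes, against 8.79 to 9.44 in control hepatocytes. Macrophage markers (20 genes) summed to 11.71 to 12.20 in NEMO and 10.68 to 11.48 in KEAP1 knockout hepatocytes, against 9.74 to 10.89 in control hepatocytes. Endothelial markers (16 genes) summed to 11.79 to 12.14 in NEMO and 11.25 to 11.75 in KEAP1 knockout hepatocytes, against 9.75 to 10.66 in control hepatocytes. Summed cholangiocyte, neutrophil, T and NK cell, B cell and fat or mesothelial markers stayed between 6.03 and 7.26 in both knockouts. The preparations thus held RNA of other liver cells. In such mixed samples fewer cells of a type and less RNA per cell cannot be told apart. In addition, 2 hepatocyte arrays outside the 6 went against their label: control replicate 1 and double knockout replicate 3 had Xist signals of 9.65 and 9.76 with Eif2s3y, a Y chromosome gene, at 2.51 and 2.71, whereas the 6 single knockout arrays had Xist at 2.07 to 2.98 and Eif2s3y at 7.44 to 7.66. The main fit of the direct contrast does not use those 2 arrays. Its alternative fit on 12 hepatocyte arrays, cited below, includes them in the estimate of the spread.

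**Figure D1:**
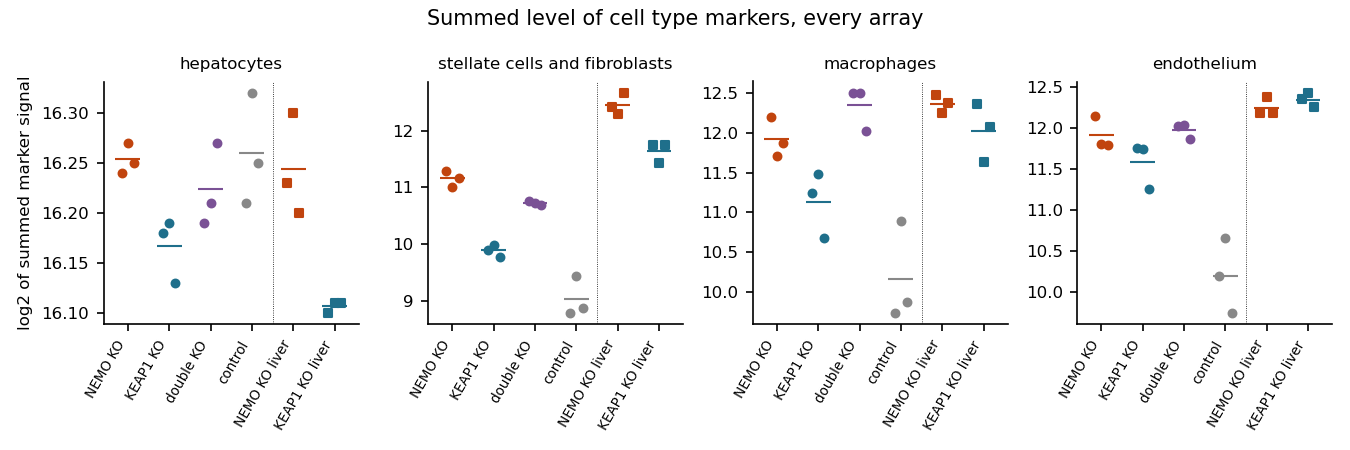
Summed signal (log2, y axis; each panel has its own scale) of the markers of 4 liver cell types on every array of the single knockouts and of the other hepatocyte groups; circles are hepatocyte arrays, squares whole livers, lines group means. Stellate cell markers in hepatocyte preparations reach 11.29 in NEMO knockouts and 9.99 in KEAP1 knockouts, while hepatocyte markers stay between 16.13 and 16.27 in both.

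Promoters from RefSeq (GRCm38.p6) were searched for motifs known for the groups described here, and windows of some leading genes are shown. Upstream sequence of 250 bases from each annotated start was available for 14749 of the measured genes. The cell cycle list had such sequence for 31 of its 37 measured members, and of these 10 (32.3%) held on either strand both TTTGAA, the cell cycle homology region of genes switched on late in the cycle, and CCAAT, the box bound by NF-Y; among all genes 5.71% held both. Shown here are 3 of the leading genes of the contrast, in lower case with both motifs in capitals, each reading from 5′ to 3′ on the strand of the gene.
Ccnb2 (chr9:70421555-70421741, minus strand): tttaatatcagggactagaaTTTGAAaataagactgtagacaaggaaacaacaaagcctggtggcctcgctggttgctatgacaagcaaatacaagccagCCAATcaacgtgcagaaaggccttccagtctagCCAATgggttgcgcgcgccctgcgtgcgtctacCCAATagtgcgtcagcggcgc
Mki67 (chr7:135716452-135716587, minus strand): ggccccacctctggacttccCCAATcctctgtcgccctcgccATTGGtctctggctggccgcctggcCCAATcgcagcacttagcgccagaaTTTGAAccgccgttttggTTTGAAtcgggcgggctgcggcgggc
Prc1 (chr7:80294394-80294471, plus strand): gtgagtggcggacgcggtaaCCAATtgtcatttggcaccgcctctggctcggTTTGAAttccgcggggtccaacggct

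The 5 lists of NRF2 target genes were covered for 79 of 92 measured members. The core of the antioxidant response element, TGACNNNGC on either strand, occurred in 9 of them (11.4%) and in 12.7% of all genes, so it was not more frequent in these lists. Among the 15 genes with the largest deficit in NEMO knockout hepatocytes, the window of Fitm1, a gene in none of these lists, is shown because it holds the core. That of Slc7a11 is shown because it holds a pair of amino acid response elements (TGATGCAAA, searched on both strands, here without overlap with another motif). Of all genes, 0.224% hold at least 1 amino acid response element, and capitals mark the motifs.
Fitm1 (chr14:55575432-55575480, plus strand): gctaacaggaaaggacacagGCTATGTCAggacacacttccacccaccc
Slc7a11 (chr3:50443633-50443699, minus strand): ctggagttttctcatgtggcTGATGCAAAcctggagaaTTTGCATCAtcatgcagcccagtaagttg

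The deleted genes were the first check of the labels. Ikbkg had 6.26, 6.27 and 6.60 in NEMO knockout hepatocytes, against 7.02, 6.84 and 6.92 in KEAP1 knockout hepatocytes, a difference of -0.55 ± 0.12 (SE; limma adjusted p = 0.0199). The groups did not overlap, although the residual signal was high, and the call was lost on leaving out any 1 of 4 arrays in turn (largest adjusted p 0.0836). Keap1 had 6.43, 6.62 and 6.25 in NEMO knockout hepatocytes and 5.73, 5.91 and 5.81 in KEAP1 knockout hepatocytes, a difference of 0.62 ± 0.13 (adjusted p = 0.014, up to 0.0649 without 1 array). Each deleted gene was thus lower in its own single knockout than in the other. Control hepatocytes had 6.69, 6.63 and 6.69 for Ikbkg, between the 2 knockouts. Against control, Ikbkg differed by -0.29 in NEMO (limma adjusted p = 0.177) and by 0.26 in KEAP1 knockout hepatocytes (adjusted p = 0.351). Neither passed the test, so a loss of Ikbkg against control was not shown. Of the 12 genes of the KEAP1-NRF2 switch, Keap1 among them, 0 were lower than control in KEAP1 knockout hepatocytes. A loss of Keap1 against control was therefore not shown either. Which exons were removed, and whether the probes lie in them, was not stated in the labels. Nfe2l2 itself was higher in NEMO knockout hepatocytes, at 9.04, 9.22 and 9.27, than in KEAP1 knockout hepatocytes, at 8.06, 8.21 and 8.18, by 1.02 ± 0.09 (adjusted p = 7.03e-05). The message of NRF2 thus ran opposite to most of the NRF2 targets described next. Bach1, which encodes a repressor that competes with NRF2 for the same DNA element, was lower in NEMO knockout hepatocytes by 0.69 on the log2 scale, at 6.67, 6.80 and 6.66, against 7.26, 7.41 and 7.53 in KEAP1 knockout hepatocytes (adjusted p = 0.00267). Among the other 9 genes of the KEAP1-NRF2 switch, including the ligase scaffold Cul3 and the small MAF partners, none passed the test.

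Of the 15 genes furthest below in NEMO knockout hepatocytes, 6 belong to the NRF2 target lists, namely Cbr3, Gpx2, Abcc4, Nqo1, Slc1a1 and Slc7a11. Cbr3, a carbonyl reductase, led the whole contrast, with 3.22, 3.00 and 3.26 in NEMO knockout hepatocytes against 9.02, 9.05 and 9.06 in KEAP1 knockout hepatocytes, a difference of -5.88 ± 0.12 (adjusted p = 1.83e-09), or 59.0-fold in favour of KEAP1. In control hepatocytes it stood at 4.11, 3.04 and 4.32, near the NEMO knockout values. Nqo1, the quinone reductase commonly used as a readout of NRF2, had 4.96, 5.94 and 5.64 in NEMO and 8.65, 8.07 and 8.62 in KEAP1 knockout hepatocytes (-2.93 ± 0.23, adjusted p = 4.48e-05). Its control values of 7.77, 5.00 and 6.63 spanned most of the gap, the highest being control replicate 1. Cbr1, the paralogue of Cbr3, had 8.87, 9.07 and 9.06 in NEMO and 11.02, 10.96 and 11.11 in KEAP1 knockout hepatocytes (-2.03 ± 0.08, adjusted p = 2.15e-07). Of the 29 measured reductases and related NRF2 targets, 19 were lower and 1 was higher in NEMO knockout hepatocytes, with a median of -0.47 over the list beside -0.005 over all genes. Further members that were lower include Cyp2a5, a P450 enzyme that oxidises coumarin (-1.67), the biliverdin reductase Blvrb (-1.38) and the aldo-keto reductase Akr1c19 (-1.11). The sulfiredoxin Srxn1 (-0.88) and the thioredoxin reductase Txnrd1 (-0.47) were lower as well. The exception, Akr1b8, was higher by 0.65, a call lost on leaving out any 1 of 4 arrays, with adjusted p up to 0.135, and Hmox1, the heme oxygenase often counted among NRF2 targets, had a difference of 0.73 that did not pass the test. In whole liver 18 of the 29 were lower and 0 higher.

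**Figure D2:**
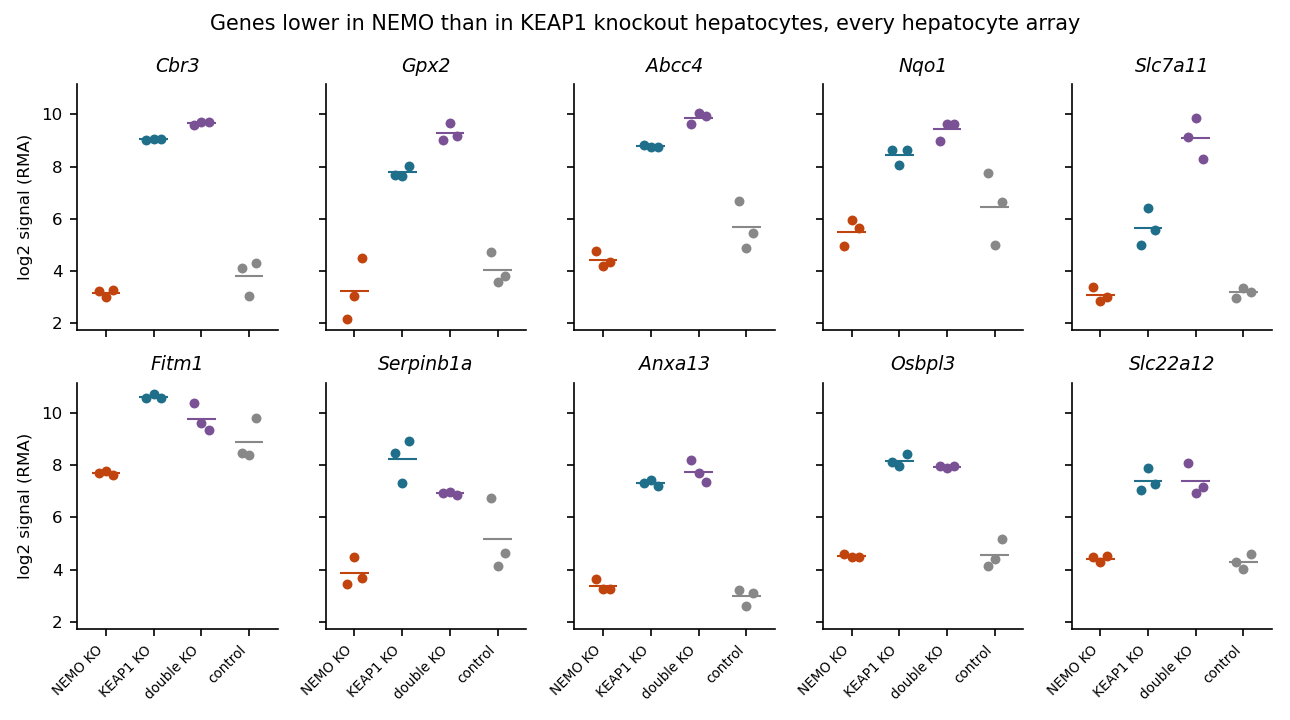
Log2 signal (y axis) of 10 of the 15 genes with the largest deficit in NEMO knockout hepatocytes, one point per array and a line at the group mean, in the 4 hepatocyte groups. The genes were named among called genes without overlap between NEMO and KEAP1 arrays; Cbr3 lies between 3.00 and 3.26 in NEMO and between 9.02 and 9.06 in KEAP1 knockouts.

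Of 19 genes of glutathione synthesis and use, 8 were lower and 3 higher. Gpx2, a glutathione peroxidase, had 2.16, 3.06 and 4.48 in NEMO against 7.69, 7.65 and 8.02 in KEAP1 knockout hepatocytes (-4.55 ± 0.44, adjusted p = 0.000143), with the low group spread over more than 2 units near the bottom of the scale. Slc7a11, the cystine importer whose promoter is shown above, had 3.40, 2.84 and 3.01 in NEMO against 4.99, 6.43 and 5.57 in KEAP1 knockout hepatocytes (-2.58 ± 0.31, adjusted p = 0.000568). Slc1a1, which imports glutamate and cysteine, had 3.11, 3.48 and 3.47 in NEMO against 6.37, 6.02 and 6.24 in KEAP1 knockout hepatocytes (-2.86 ± 0.16, adjusted p = 5.19e-06). NEMO values of both carriers lay near the controls, which had 2.98 to 3.34 for Slc7a11 and 2.76 to 3.40 for Slc1a1. The rate-limiting subunit of glutathione synthesis, Gclc (-0.69), the peroxidase Gpx4 (-0.74) and the reductase Gsr (-0.55) were also lower, all among the 8 lower. Higher in NEMO knockout hepatocytes were 3 amino acid genes, namely the transsulfuration enzyme Cbs (0.33), the transporter heavy chain Slc3a2 (0.37) and the glutamine carrier Slc1a5 (0.79); the call of Slc1a5 was lost on leaving out any 1 of 5 arrays, with adjusted p up to 0.113, that of Slc3a2 without any of 4 and that of Cbs without 1. In the fit on 12 hepatocyte arrays, without the intensity trend, and without NEMO replicate 1 or 2 or KEAP1 replicate 1 or 3, 1 member was higher. Oplah and Chac1, which act in glutathione turnover, were called lower (adjusted p = 0.0386 and 0.0336), but each call was also lost on leaving out any 1 of 5 arrays, with adjusted p up to 0.133 and 0.126.

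Genes of conjugation and export were more often lower than higher. Of 17 measured glutathione S-transferases, 7 were lower and 0 higher, with a median of -0.45; Gstm4 had 9.21, 9.41 and 9.21 in NEMO against 10.90, 10.90 and 10.88 in KEAP1 knockout hepatocytes (-1.61 ± 0.07, adjusted p = 1.1e-06). The abundant Gstm1 differed by -0.75 and Gstm3 by -0.68. These transferases are near-identical paralogues, so the probes may share signal. The fit on 12 hepatocyte arrays left 4 lower. Of 16 glucuronosyl- and sulfotransferases, 8 were lower, among them Ugt3a1 (-1.06) and Ugt2b35 (-0.91), and 2 were higher, the phenol sulfotransferase Sult1a1 by 1.32 and Sult1c2 by 0.82; the number lower fell to 4 in the fit on 12 arrays and without the intensity trend. The call of Sult1c2 was less firm (lost on leaving out any 1 of 5 arrays, with adjusted p up to 0.0807). Abcc4, which exports bile acids and conjugates into blood, had 4.75, 4.20 and 4.33 in NEMO against 8.82, 8.75 and 8.77 in KEAP1 knockout hepatocytes (-4.35 ± 0.14, adjusted p = 9.97e-08). Control hepatocytes had 6.70, 4.88 and 5.47, and all 3 NEMO arrays lay below them. The neighbouring exporters Abcc3 (-1.20) and Abcc5 (-1.10) and the sterol exporter pair Abcg5 (-1.24) and Abcg8 (-1.51) were lower too. Against control, Abcg5 and Abcg8 differed by 0.18 and 0.38 in KEAP1 knockout hepatocytes (limma adjusted p = 0.871 and 0.627). In NEMO knockout hepatocytes they differed from control by -1.06 and -1.14 (adjusted p = 0.0628 and 0.0309). Of the 13 measured, 3 were higher than control in KEAP1, and 1 was higher and 2 lower in NEMO knockout hepatocytes. Without the 2 arrays that go against their label, these numbers were 4, 1 and 1. In the direct contrast 6 of the 13 were lower and 1 higher. The one higher was Abcb4, the phosphatidylcholine floppase of bile (0.52, adjusted p = 0.0376), a call lost on leaving out any 1 of 4 arrays, with adjusted p up to 0.134.

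Of 14 enzymes of the pentose phosphate pathway and NADPH supply, 5 were lower and 0 higher: phosphogluconate dehydrogenase Pgd (-0.98), transketolase Tkt (-0.75), G6pd2 (-0.80), Pgls (-0.45) and malic enzyme Me1 (-0.40). Against control, Me1 was lower in NEMO (-0.40, limma adjusted p = 0.0434) and was not called in KEAP1 knockout hepatocytes (adjusted p = 0.994). Without the 2 arrays that go against their label, 0 of the 14 were lower than control in NEMO knockout hepatocytes. The calls of Pgd and Tkt remained without any 1 array, while the count fell to 2 without KEAP1 replicate 3 or NEMO replicate 3, and to 3 without KEAP1 replicate 1 or 2, without the trend and in the fit on 12 arrays.

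Of the 15 genes with the largest deficit, 9 were in none of the NRF2 target lists. Serpinb1a, an inhibitor of neutrophil elastase, had 3.44, 4.49 and 3.66 in NEMO against 8.45, 7.33 and 8.94 in KEAP1 knockout hepatocytes (-4.38 ± 0.37, adjusted p = 6.68e-05). Anxa13, a membrane-binding annexin, had 3.62, 3.25 and 3.25 in NEMO against 7.30, 7.44 and 7.21 in KEAP1 knockout hepatocytes (-3.94 ± 0.15, adjusted p = 2.15e-07). Osbpl3, an oxysterol-binding protein relative, had 4.58, 4.49 and 4.47 in NEMO against 8.12, 7.96 and 8.41 in KEAP1 knockout hepatocytes (-3.65 ± 0.13, adjusted p = 2.15e-07). For Anxa13 and Osbpl3 the NEMO arrays lay near the controls, which had 2.59 to 3.21 and 4.13 to 5.18, and the double knockout shared the KEAP1 level, with 7.35 to 8.21 and 7.88 to 7.98. Fitm1, which promotes lipid droplet formation, had 7.71, 7.76 and 7.63 in NEMO against 10.56, 10.72 and 10.57 in KEAP1 knockout hepatocytes (-2.92 ± 0.08, adjusted p = 2.03e-08). Its controls, at 8.46, 8.39 and 9.82, lay between the knockouts. The renal urate carrier Slc22a12 (-2.98), the neurexin Nrxn2 (-2.54), Spatc1 (-2.51), Tinag (-2.36) and Plekhb1 (-2.36) completed the group. None of the 15 lost its call when any 1 array was left out.

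On the other side, genes of the cell cycle were the largest group higher in NEMO knockout hepatocytes. Of 37 measured, 25 were higher and 0 lower, with a median of 1.53 (23 to 25 higher without any 1 array). Mki67, the proliferation antigen, had 7.51, 8.19 and 7.77 in NEMO and 3.83, 4.50 and 4.16 in KEAP1 knockout hepatocytes (3.66 ± 0.20, adjusted p = 3.96e-06). Ccna2, cyclin A of S phase and G2, had 6.89, 7.90 and 7.17 in NEMO and 3.29, 4.25 and 3.73 in KEAP1 knockout hepatocytes (3.56 ± 0.28, adjusted p = 4.16e-05). For both, KEAP1 values were near the controls, which had 3.54 to 3.99 for Mki67 and 3.05 to 3.70 for Ccna2, and double knockout values of 6.32 to 7.19 and 5.81 to 6.74 lay between the single knockouts. The mitotic genes Ccnb2 (3.20), Plk1 (3.26), Ckap2 (3.19), Ect2 (3.12), Prc1 (2.93), Tpx2 (2.90), Knstrn (3.35) and Hmmr (3.63) were higher too. Among replication genes Mcm6 differed by 1.39, Mcm5 by 1.03, Mcm3 by 0.91 and Mcm7 by 0.55 (Mcm7 lost on leaving out any 1 of 5 arrays and Mcm3 without 1), while Mcm2 (0.51), Pcna (0.36), Mcm4 (0.22) and Ccne1 (-0.07) did not pass the test. The cyclin-dependent kinases Cdk2 (0.06), Cdk4 (-0.04) and Cdk6 (0.11) did not pass either, whereas Cdk1 did (1.95).

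Ccnd1, cyclin D1, which couples mitogen signals to entry into the cycle, was the called gene of the list with the largest difference. It had 9.15, 8.80 and 9.07 in NEMO against 5.57, 5.10 and 5.19 in KEAP1 knockout hepatocytes (3.72 ± 0.14, adjusted p = 2.15e-07). Control hepatocytes had 7.86, 6.32 and 5.45, so KEAP1 values reached the lowest control and NEMO values exceeded the highest. The related Ccnd2 (0.43) and Ccnd3 (-0.41) did not pass the test. The single largest difference of the contrast in this direction belonged to D17H6S56E-5, with 8.52, 9.32 and 9.23 in NEMO against 3.83, 5.35 and 4.17 in KEAP1 knockout hepatocytes (4.57 ± 0.34, adjusted p = 2.86e-05). Markers of stellate cells and macrophages were also higher in NEMO knockout hepatocytes, as given above, and their part in the cell cycle result was not tested.

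**Figure D3:**
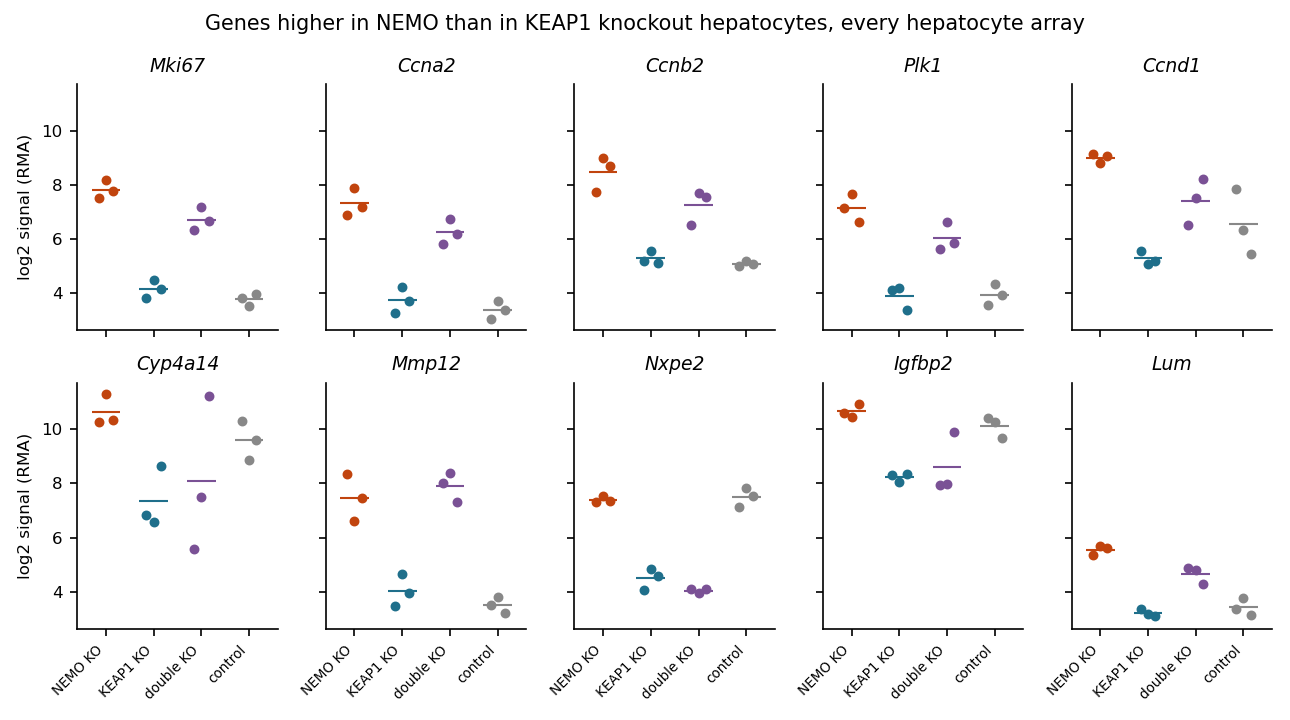
Log2 signal (y axis) of 10 genes that were higher in NEMO than in KEAP1 knockout hepatocytes, one point per array and a line at the group mean, in the 4 hepatocyte groups. Mki67, Ccna2, Ccnb2 and Plk1 are high in NEMO knockouts with KEAP1 knockouts near the controls, whereas Nxpe2 is low in KEAP1 knockouts with NEMO knockouts near the controls, and Igfbp2 is low in KEAP1 knockouts with NEMO knockouts above the controls.

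Genes of damage and cell death moved both ways. Of 17 p53 targets, 4 were higher and 1 lower, and the number higher fell to 1 without NEMO replicate 2 and to 2 without NEMO replicate 1. Tnfrsf10b, the mouse receptor for the death ligand TRAIL, had 5.25, 5.11 and 4.89 in NEMO and 4.22, 4.03 and 3.81 in KEAP1 knockout hepatocytes (1.07 ± 0.17, adjusted p = 0.00286) and kept its call without any 1 array. Tnfrsf12a, receptor of the cytokine TWEAK, had 6.04, 6.42 and 6.98 in NEMO and 5.42, 5.18 and 4.95 in KEAP1 knockout hepatocytes (1.30 ± 0.22, adjusted p = 0.00426). Both are receptors of death or injury signals. Bid, which links death receptors to mitochondria, went the other way, at 4.76, 4.92 and 5.24 in NEMO against 5.94, 5.92 and 6.12 in KEAP1 knockout hepatocytes (-1.02 ± 0.15, adjusted p = 0.00209). KEAP1 values of Bid lay within the controls, at 5.68 to 6.20, and NEMO values lay below them. The cell cycle inhibitor Cdkn1a differed by 1.56 ± 0.31 (adjusted p = 0.012), a call lost on leaving out either of 2 arrays (largest adjusted p 0.0604).

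Some immediate early factors were higher. Klf6, a zinc finger factor induced by injury, had 7.83, 7.55 and 7.91 in NEMO and 5.59, 5.25 and 5.02 in KEAP1 knockout hepatocytes (2.48 ± 0.16, adjusted p = 1.01e-05). Egr1 had 9.59, 9.34 and 9.50 in NEMO against 8.63, 7.74 and 8.40 in KEAP1 knockout hepatocytes (1.22 ± 0.19, adjusted p = 0.00249), with controls of 9.62, 9.62 and 8.68. For Egr1 the KEAP1 arrays lay below all controls. With Jun (0.79) and Jund (0.74), 4 of 20 such factors were higher and 0 lower, the call of Jun being lost on leaving out any 1 of 4 arrays, with adjusted p up to 0.113. Among 35 NF-kB targets, 2 were higher (5.71% of the list, beside 4.02% of all genes) and 1 was lower, shares near those of all genes. Those higher were the adhesion molecules Vcam1 (1.30) and Icam1 (0.71, lost on leaving out any 1 of 5 arrays, with adjusted p up to 0.138), and the lower one was the acute phase protein Saa3, at 4.36, 3.58 and 3.66 in NEMO against 5.30, 5.72 and 5.22 in KEAP1 knockout hepatocytes (-1.54 ± 0.23, adjusted p = 0.00199). The feedback inhibitors Nfkbia (-0.26) and Tnfaip3 (0.08) did not pass the test. Interferon-responsive genes held 3 lower and 0 higher of 31, namely Cxcl9 (-1.40), Ifit1 (-0.98) and Irf7 (-0.69).

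Many matrix genes and most stellate cell markers were higher. Of 34 matrix genes, 17 were higher and 0 lower, with a median of 0.62. Lum, the proteoglycan lumican, had 5.36, 5.69 and 5.61 in NEMO and 3.37, 3.17 and 3.09 in KEAP1 knockout hepatocytes (2.34 ± 0.16, adjusted p = 1.6e-05). Decorin, Dcn, had 10.09, 9.83 and 10.01 in NEMO and 8.35, 8.54 and 8.18 in KEAP1 knockout hepatocytes (1.62 ± 0.11, adjusted p = 1.18e-05). Both are stellate cell and fibroblast markers; of 17 such markers 12 were higher and 0 lower, among them Reln (1.52), Rgs5 (1.56), Cygb (1.39) and Pdgfra (1.38). The collagens Col3a1 (1.28) and Col1a1 (0.71) were higher, while the stellate cell filament gene Des differed by 0.13 without passing the test. Of 20 macrophage markers 11 were higher and 0 lower, a number that fell to 5 without NEMO replicate 1 and to 7 without NEMO replicate 3, KEAP1 replicate 1 or KEAP1 replicate 3. It was 4 in the fit on 12 hepatocyte arrays and 5 without the intensity trend. Cd68, a lysosomal protein of macrophages, had 8.23, 7.37 and 7.72 in NEMO and 6.60, 7.01 and 6.20 in KEAP1 knockout hepatocytes (1.18 ± 0.23, adjusted p = 0.0102). The scavenger receptor Marco (1.61) and complement C1qb (1.04) were higher, whereas the Kupffer cell lectin Clec4f had a difference of 0.61 that did not pass the test (adjusted p = 0.0589). Mmp12, the metalloelastase, showed the largest difference of the matrix list, with 8.34, 6.62 and 7.47 in NEMO against 3.46, 4.66 and 3.94 in KEAP1 knockout hepatocytes (3.45 ± 0.39, adjusted p = 0.000398). MHC class II genes, which present antigen, followed, with 4 of 7 higher, including H2-Aa (1.30), H2-Ab1 (1.10) and Cd74 (0.93). Of 16 endothelial markers only Fcgr2b was higher (0.57), a call lost on leaving out any 1 of 4 arrays, with adjusted p up to 0.135, and the sinusoidal marker Stab2 differed by 0.45 without passing the test.

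Marker signal of other cells also differed between knockouts and controls. Of the 16 endothelial markers, 15 were higher than control in NEMO knockout hepatocytes and 15 in KEAP1 knockout hepatocytes, where all genes gave 4.61% and 1.45%; these comparisons share the control arrays. Of the 17 stellate cell markers, 16 were higher than control in NEMO and 3 in KEAP1 knockout hepatocytes. Of the 20 macrophage markers, the numbers were 15 in NEMO and 4 in KEAP1 knockout hepatocytes. Without the 2 arrays that go against their label, the NEMO and KEAP1 counts were 15 and 12 for endothelium, 14 and 2 for stellate cells and 15 and 1 for macrophages. The part of these cells in the results on matrix, MHC class II and cytoskeletal genes was not tested.

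**Figure D4:**
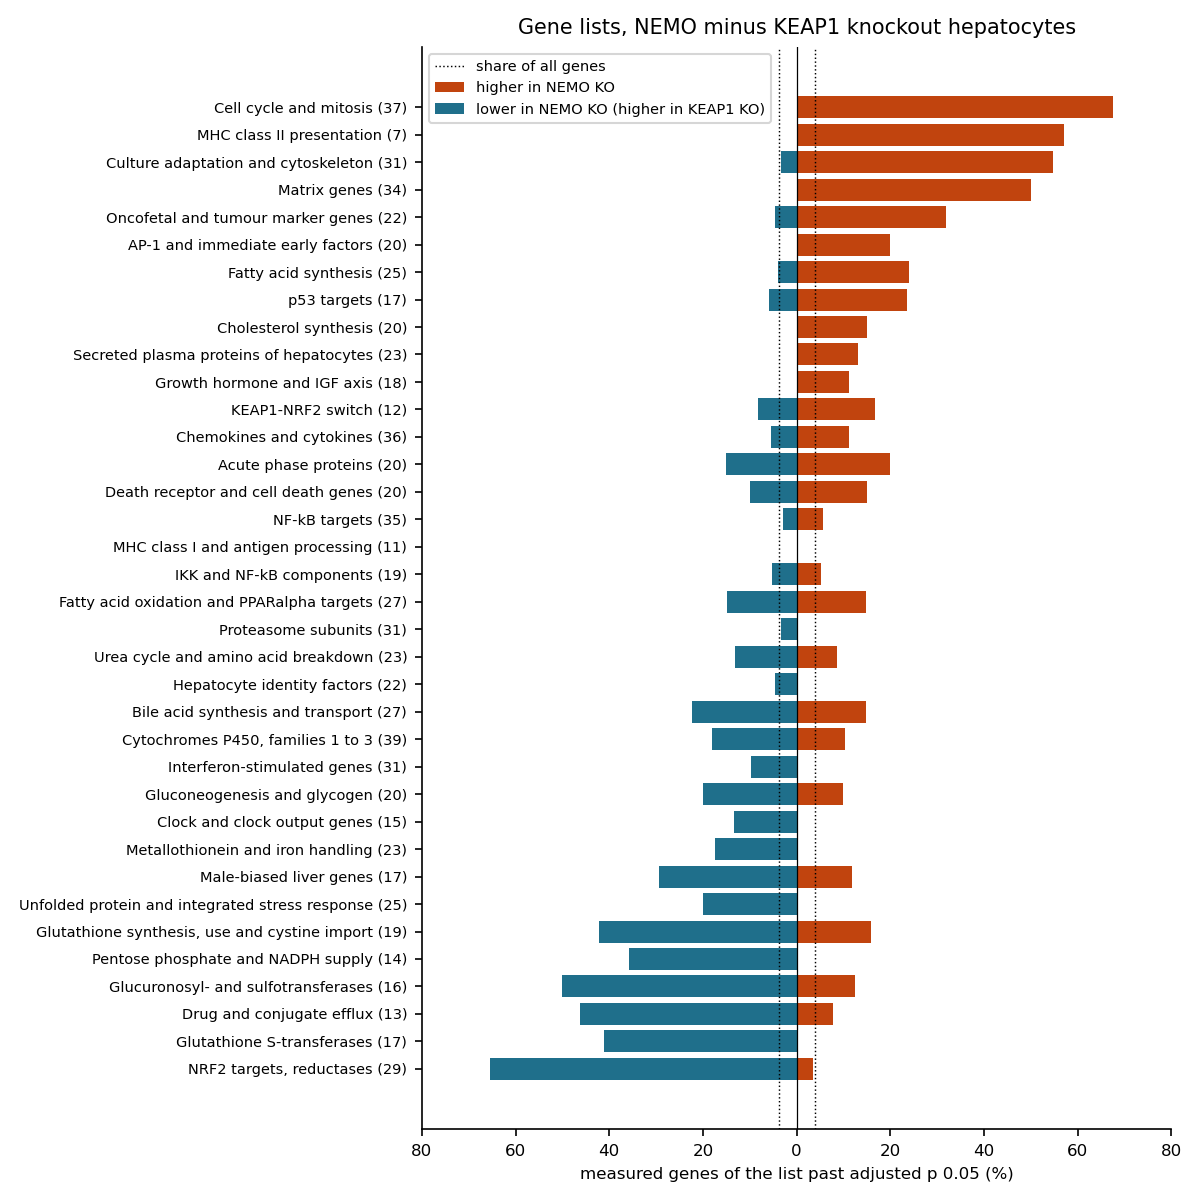
Share of the measured genes of each of 36 lists (number measured in brackets) that were called higher (right) or lower (left) in NEMO than in KEAP1 knockout hepatocytes; dotted lines mark the share of all 18820 genes, 4.02% higher and 3.76% lower. Cell cycle genes and NRF2 target reductases mark the ends, with 25 of 37 higher and 19 of 29 lower.

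Many cytoskeletal and some tumour marker genes were higher. Of 31 genes of the cytoskeleton and of culture adaptation, 17 were higher and 1 lower, the number higher falling to 11 without NEMO replicate 1 or KEAP1 replicate 3 and to 10 without the intensity trend. Tubb6, a beta-tubulin, had 7.27, 7.76 and 7.22 in NEMO and 4.96, 4.82 and 5.05 in KEAP1 knockout hepatocytes (2.47 ± 0.16, adjusted p = 1.01e-05). Anxa2, a calcium-dependent membrane protein, had 6.28, 6.08 and 5.90 in NEMO and 4.20, 4.28 and 4.35 in KEAP1 knockout hepatocytes (1.81 ± 0.14, adjusted p = 4.48e-05). Both were higher than in KEAP1 knockout hepatocytes by over 1 log2 unit. Of 22 oncofetal and tumour marker genes 7 were higher and 1 lower. The members of this list, as of the others, were chosen with earlier results of these data known. The count therefore describes these genes only and is no test of the class. Gldn, gliomedin, had 5.80, 5.77 and 6.52 in NEMO and 3.11, 2.91 and 3.53 in KEAP1 knockout hepatocytes (2.85 ± 0.23, adjusted p = 5.14e-05), and its double knockout values of 2.62 to 3.41 lay near the controls, at 2.64 to 3.49. Akr1c18, a hydroxysteroid dehydrogenase, had 4.50, 6.40 and 5.20 in NEMO against 3.17, 3.40 and 2.98 in KEAP1 knockout hepatocytes (2.19 ± 0.38, adjusted p = 0.00505). The RNA-binding protein Igf2bp3 (1.10) and the Golgi protein Golm1 (1.18), both used as tumour markers in human liver, were higher. Ly6d, a surface antigen, had 7.60, 8.66 and 7.99 in NEMO and 6.57, 6.57 and 7.10 in KEAP1 knockout hepatocytes (1.33 ± 0.24, adjusted p = 0.00588), with controls far below both at 4.36 to 4.63.

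For some genes that were higher in NEMO knockout hepatocytes the KEAP1 arrays lay below all controls. Egr1 above and Elovl5, Fads1 and Cyp4a14 below are among them, and 3 more examples follow here. Such genes were not counted over all genes. Nxpe2 had 7.32, 7.54 and 7.36 in NEMO and 4.07, 4.86 and 4.57 in KEAP1 knockout hepatocytes (2.91 ± 0.18, adjusted p = 1.01e-05), with controls of 7.15, 7.84 and 7.53. Igfbp2, a binding protein of insulin-like growth factors, had 10.60, 10.46 and 10.92 in NEMO and 8.31, 8.04 and 8.34 in KEAP1 knockout hepatocytes (2.43 ± 0.12, adjusted p = 2.14e-06), with controls of 10.42, 10.26 and 9.69, below all NEMO arrays. Kyat3, a kynurenine aminotransferase, had 9.74, 9.32 and 8.98 in NEMO and 7.31, 7.39 and 7.22 in KEAP1 knockout hepatocytes (2.04 ± 0.16, adjusted p = 3.98e-05), with controls of 10.45, 9.32 and 9.36. In the fit with controls, KEAP1 minus control was -3.01 for Nxpe2 (adjusted p = 4.36e-06), -1.89 for Igfbp2 (adjusted p = 0.0284) and -2.40 for Kyat3 (adjusted p = 0.00281), while NEMO minus control was -0.10, 0.54 and -0.36 and did not pass the test. Without the 2 arrays that go against their label, NEMO minus control of Igfbp2 was 0.69 and passed the test (adjusted p = 0.0318), and the 3 KEAP1 differences were -3.19, -1.74 and -2.03, each called.

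Some lipid synthesis genes were higher. Of 25 genes of fatty acid synthesis 6 were higher and 1 lower in NEMO than in KEAP1 knockout hepatocytes. The elongase Elovl5 had 11.13, 11.34 and 11.30 in NEMO and 10.36, 9.89 and 10.39 in KEAP1 knockout hepatocytes (1.05 ± 0.12, adjusted p = 0.00047), with controls of 10.93 to 11.16. The desaturase Fads1 had 10.62, 10.96 and 10.64 in NEMO and 9.81, 9.77 and 9.88 in KEAP1 knockout hepatocytes (0.92 ± 0.09, adjusted p = 0.000191), with controls of 10.47 to 11.10. Fads2 (0.62), Scd1 (0.52), Acaca (0.46) and Elovl2 (0.41) completed those higher, Acaca losing its call on leaving out any 1 of 3 arrays. Of 20 cholesterol synthesis genes 3 were higher, Fdps (0.66), Dhcr7 (0.62) and Sc5d (0.39), and 0 lower, with Dhcr7 alone keeping its call without any 1 array. Against control, 4 fatty acid and 5 cholesterol synthesis genes were lower in NEMO knockout hepatocytes, and 5 and 6 were lower in KEAP1 knockout hepatocytes, with 0 higher in either. The fit on 12 arrays left 3 fatty acid synthesis genes higher in NEMO than in KEAP1 knockout hepatocytes. The cholesterol synthesis count was 1 without NEMO replicate 1 or 2 or the trend, and 6 without NEMO replicate 3.

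Among genes of fatty acid oxidation and PPARalpha, 4 were higher and 4 lower of 27. Cyp4a14, a fatty acid hydroxylase driven by PPARalpha, had 10.28, 11.30 and 10.33 in NEMO against 6.82, 6.59 and 8.63 in KEAP1 knockout hepatocytes (3.29 ± 0.45, adjusted p = 0.00132). Controls of 10.31, 8.88 and 9.61 stood nearer to NEMO, and double knockout values were 5.57, 7.51 and 11.23. The highest value of each of these 2 groups came from the array that goes against its label. Pdk4, a kinase that limits glucose oxidation, had 8.28, 8.65 and 8.27 in NEMO and 7.56, 5.93 and 6.03 in KEAP1 knockout hepatocytes (1.89 ± 0.35, adjusted p = 0.00717). The peroxisomal gene Pex11a was lower by 0.88 on the log2 scale. Bile acid genes were mixed, with 4 higher and 6 lower of 27: Slc10a2, the apical bile acid importer, had 8.39, 8.03 and 7.61 in NEMO and 5.92, 6.15 and 6.17 in KEAP1 knockout hepatocytes (1.93 ± 0.17, adjusted p = 9.47e-05), whereas Cyp8b1, the sterol 12-alpha-hydroxylase, differed by -0.99 (adjusted p = 0.00313) and Cyp7b1 by -0.84. Of 39 P450 genes of families 1 to 3, 4 were higher and 7 lower, including Cyp3a11 (0.52) and Cyp1a2 (-0.69). The number of P450 genes lower fell to 4 without KEAP1 replicate 1, KEAP1 replicate 3, NEMO replicate 2 or the intensity trend, and the number higher to 1 without the trend and in the fit on 12 arrays. Of the bile acid genes, 2 were higher without KEAP1 replicate 1 or 3 or NEMO replicate 3, 1 without the trend, and 1 higher and 3 lower in the fit on 12 arrays. That fit left 1 higher and 2 lower among the genes of fatty acid oxidation.

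Of 22 hepatocyte identity factors 0 were higher and 1 lower, near the 3.76% of all genes; the lower one was Cebpa, by -0.38 (adjusted p = 0.0352), a call lost on leaving out any 1 of 5 arrays, with adjusted p up to 0.138. Of 23 secreted plasma proteins 3 were higher by at most 0.28, and their number fell to 0 without NEMO replicate 2 or KEAP1 replicate 3. Glul, the glutamine synthetase of hepatocytes next to the central vein, had 10.79, 10.56 and 10.72 in NEMO and 9.64, 9.67 and 10.26 in KEAP1 knockout hepatocytes (0.83 ± 0.15, adjusted p = 0.00538). The proteasome subunits, known NRF2 or NRF1 targets, held 1 lower of 31, near the 3.76% of all genes, with a median of -0.06 over the list. The lower one was Psmb5, at 7.37, 7.17 and 7.18 in NEMO against 8.02, 7.99 and 8.04 in KEAP1 knockout hepatocytes (-0.78 ± 0.09, limma adjusted p = 0.00052). Of 11 MHC class I and antigen processing genes none passed the test.

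In whole liver the same contrast called 1136 genes (6.04%), 629 higher (3.34%) and 507 lower (2.69%). Liver and hepatocyte contrasts share no array, and 387 genes were called higher and 330 lower in both, which is 49.0% of the hepatocyte calls and 63.1% of the liver calls, with 0 called in opposite directions. Across the 18820 genes, which are not independent replicates, the differences in the 2 sample kinds had Pearson's r = 0.726. Cell cycle genes gave 25 of 37 higher in liver, matrix genes 19 of 34 and the NRF2 reductases 18 of 29 lower. Leading genes had these liver differences: Cbr3 -6.16, Gpx2 -5.02, Abcc4 -4.00, Ccnd1 2.92, Lum 2.17 and Gldn 2.83.

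The test of hepatocyte minus liver difference called 0 genes (limma; 1122 genes, 5.96%, at an unadjusted p under 0.05). Genes with the smallest p in that test were named by rule, and values of some of them are given here. Slc7a11 differed by -2.58 in hepatocytes and by -5.39 in liver, with liver values of 3.15, 2.83 and 2.70 in NEMO and 7.82, 8.53 and 8.50 in KEAP1 knockouts; the difference of differences was 2.81 ± 0.42 (adjusted p = 0.153). KEAP1 knockout hepatocytes thus lay below KEAP1 knockout livers for this importer, while double knockout hepatocytes had 9.14, 9.88 and 8.31. Rgs5, a pericyte and stellate cell gene, differed by 1.56 in hepatocytes and -0.12 in liver (adjusted p of the difference 0.153).

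**Figure D5:**
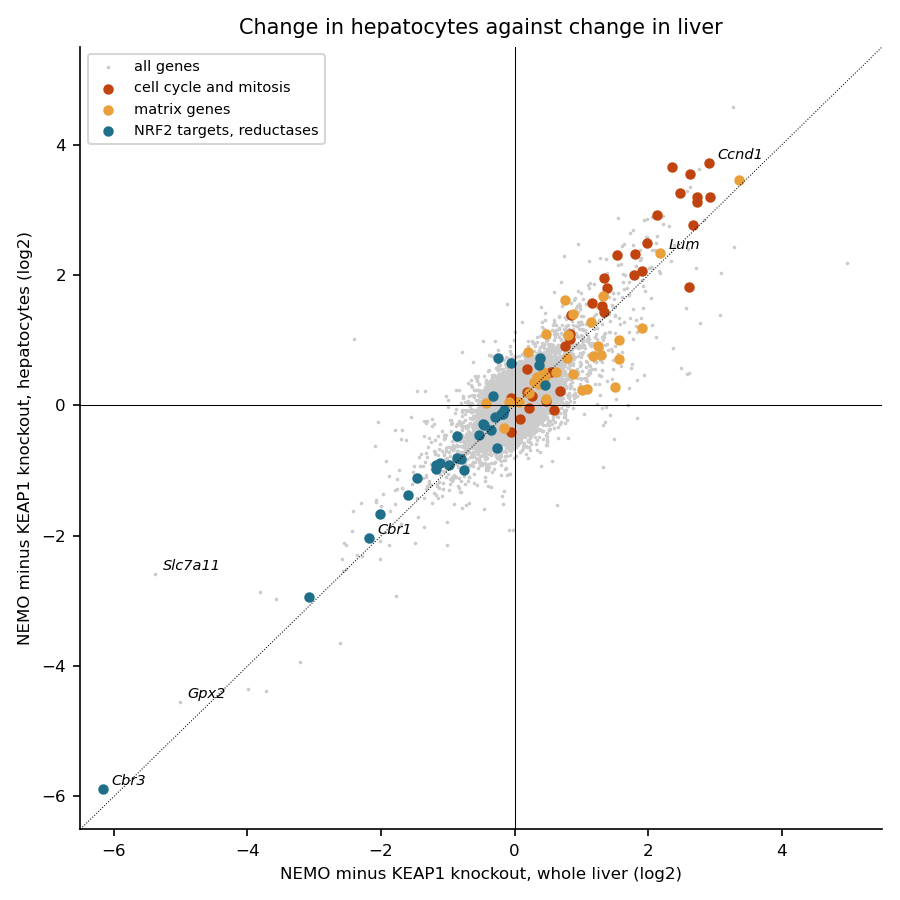
NEMO minus KEAP1 knockout difference (log2) of each of 18820 genes in hepatocytes (y axis) against whole liver (x axis); coloured points are members of 3 lists and the dotted line marks equal differences. Cell cycle genes lie mostly at the upper right, NRF2 target reductases mostly at the lower left, and Slc7a11 lies off the line at -2.58 in hepatocytes and -5.39 in liver.

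Against control, with the 12 hepatocyte arrays in the fit, NEMO knockout hepatocytes had 1252 called genes (6.65%), 867 higher (4.61%) and 385 lower (2.05%), or 795 higher and 622 lower of 1417 when arrays were centred on their medians. KEAP1 knockout hepatocytes had 352 (1.87%), 272 higher (1.45%) and 80 lower (0.425%). Leaving out the 2 arrays whose label and Xist level disagreed gave 1051 and 342. The cell cycle list held 28 of 37 higher than control in NEMO and 0 in KEAP1 knockout hepatocytes, and the NRF2 reductases held 3 higher than control in NEMO and 12 of 29 in KEAP1 knockout hepatocytes. Those counts were 27, 0, 4 and 15 without the 2 arrays. The labels name a mouse as the source of each array but do not say that the arrays of a group came from separate animals, so p-values measure only the spread between these arrays.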

How the data were processed

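RNA of 24 samples was hybridised to 1-colour Affymetrix arrays. The authors deposited RMA values on the log2 scale, 1 per probe set for each array; RMA is named in the submitters' processing notes, without version or options. Of 35556 probe sets, 21218 had 1 gene symbol in the platform annotation, 1881 several and 12457 were not listed. Probe sets with 1 symbol were used, and the one with the highest mean over the 24 arrays stood for a gene, giving 18820 genes with no filter on low values. No scan dates were used, so no batch was tested, and 3 arrays a group limit the precision. Signals near 3 lie close to the level of Xist in male samples, so folds from there may be understated.

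Differences were tested, two-sided, with limma 3.58.1 in R 4.3.3 (lmFit, eBayes with an intensity trend) and Benjamini-Hochberg adjustment. The fit was also run on simulated data with known changes. Genes were drawn independently there, so that run cannot check error control on the real arrays. The direct contrast used 6 arrays, the contrast in liver the 6 liver arrays, the difference between them all 12, and comparisons with control the 12 hepatocyte arrays. Alternatives were the replicate number as a block, no trend, renewed quantile normalisation, median centring, a minimum mean of 4, averaged probe sets and leaving out arrays. For the direct contrast, a fit on the 12 hepatocyte arrays was a further alternative. The labels do not say that the numbers pair animals, so the numbers were not taken as pairs. Same-numbered arrays had residual correlations of 0.129, -0.042 and 0.075 in hepatocytes and 0.028, 0.151 and 0.089 in liver. Arrays with different numbers had -0.138 to 0.08 in hepatocytes and -0.154 to 0.061 in liver. These values do not decide whether animals were paired.

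Named genes were the 15 largest differences in each direction among called genes without overlap, up to 6 such members of each list by size, the deleted genes, Nfe2l2, defining markers and the 5 smallest p-values of the difference between hepatocytes and liver; other list members are named as examples chosen after their values were seen. Members and lists (36 gene lists and 10 marker lists, 840 of 945 symbols measured) were chosen with earlier results of these data known. Promoter sequences are from RefSeq, GRCm38.p6.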

Additional observations from a re-analysis of the deposited data

Results flagged for a closer look

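Among the named genes, 3 had all NEMO arrays above all KEAP1 arrays in hepatocytes and below them in liver. Of all 18820 genes, 2251 had all NEMO arrays higher in hepatocytes and 2331 had all NEMO arrays lower in liver. These are separate counts, and the number of genes meeting both conditions is not given here. Whether 3 is many or few among the named genes was therefore not tested. For Hes1, a Notch-responsive repressor, the hepatocyte minus liver difference was 1.61 (limma adjusted p = 0.249), with 6.70, 6.61 and 7.18 in NEMO and 6.13, 5.48 and 6.42 in KEAP1 knockout hepatocytes. Livers had 5.03, 5.25 and 5.24 in NEMO and 6.09, 5.91 and 5.89 in KEAP1 knockouts. For Cyp39a1, an oxysterol hydroxylase, the difference was 1.30 (adjusted p = 0.449), made up of 0.67 in hepatocytes and -0.63 in liver. For Kdr, an endothelial growth factor receptor, it was 0.58 (adjusted p = 0.71), made up of 0.29 and -0.29. The test of the difference was not passed by any of the 3.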

How the results depend on the processing

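Under every alternative run, 0 of the 186 named and called genes reversed direction. Leaving out 1 array could not reverse them, as no called gene overlapped between the groups. Fits without the trend, with the block, at a minimum mean of 4 or on 12 arrays keep the same differences. Only renewed normalisation, centring and averaged probe sets could have changed a sign. Calls were lost by 52 of the 186 without some array, 48 without the intensity trend and 56 in the fit on 12 hepatocyte arrays. Renewed quantile normalisation lost 5, centring 4, averaged probe sets 3 and the replicate number as a block 1. The 1464 calls of the direct contrast became 936 without the trend and 963 to 1199 without 1 array (963 without KEAP1 replicate 3, 988 without NEMO replicate 2); the replicate block gave 1580. In liver 1136 calls became 804 without the trend and 590 to 956 without 1 array (590 without KEAP1 liver replicate 2, 601 without KEAP1 liver replicate 1, 633 without NEMO liver replicate 3), and the block gave 1261. The hepatocyte minus liver test gave 0 to 5 without 1 array (5 without NEMO liver replicate 1) and 0 with the block or another setting. Against control, NEMO knockout hepatocytes had 807 to 1196 calls without 1 array (807 without NEMO replicate 1). KEAP1 knockout hepatocytes had 232 calls without the trend and 123 to 405 without 1 array (123, 142 and 216 without KEAP1 replicate 1, 2 or 3). The cause of these changes was not tested, and fits without 1 array also hold fewer arrays. Replicate numbers share only a number, so losses under the block say nothing of a weaker effect.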

Other observations

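Carbohydrate and amino acid genes not yet described differed in both directions. Of 20 genes of gluconeogenesis and glycogen, 4 were lower and 2 higher in NEMO than in KEAP1 knockout hepatocytes. Ugp2, which makes the UDP-glucose used for glycogen and glucuronides, had 9.45, 9.92 and 9.72 in NEMO and 10.74, 10.89 and 10.94 in KEAP1 knockout hepatocytes (-1.16 ± 0.11, limma adjusted p = 0.000119), and the glycogen branching enzyme Gbe1 differed by -0.90. Lactate dehydrogenase Ldha was higher by 0.44. Of 23 genes of the urea cycle and amino acid breakdown, 3 were lower and 2 higher: the asparaginase Aspg differed by -0.94 and the tryptophan dioxygenase Tdo2 by -0.62, while Kyat3 and Glul were higher, as given above. Of 17 male-biased liver genes, 5 were lower and 2 higher, the urinary protein Mup21 differing by -1.42. In the fit on 12 arrays 0 of the 17 were called, and the number higher was 1 without KEAP1 replicate 3 or any NEMO array and 0 without the trend. The fit on 12 arrays includes the 2 arrays whose Xist level goes against a male label. Among these genes, Cyp4a12a had 2.53 in control replicate 1 against 10.93 and 11.57 in the other controls. It had 4.62 in double knockout replicate 3 against 11.38 and 11.22 in the other double knockouts. The part of these arrays in the lost calls was not tested. The paralogues of Mup21 are nearly identical, so its signal may be shared.

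Acute phase and signalling genes were also mixed. Their counts stand beside 4.02% higher and 3.76% lower among all genes. Of 20 acute phase genes 4 were higher and 3 lower, and Orm3 had 4.16, 4.01 and 5.04 in NEMO and 6.94, 6.04 and 6.68 in KEAP1 knockout hepatocytes (-2.14 ± 0.28, adjusted p = 0.000997); in liver 0 of the 20 passed the test. The number of acute phase genes higher fell to 1 without NEMO replicate 3, to 2 without NEMO replicate 1 or 2 or KEAP1 replicate 1 or 3, and to 0 without the intensity trend, and the fit on 12 arrays left 1 higher and 1 lower. Of 36 chemokines and cytokines 4 were higher and 2 lower, the number higher being 2 without any 1 array other than KEAP1 replicate 2, without the trend and in the fit on 12 arrays. A count of 2 of 36 is near the shares of all genes. Cxcl14 had 6.19, 6.41 and 5.90 in NEMO and 3.83, 4.44 and 3.91 in KEAP1 knockout hepatocytes (2.11 ± 0.20, adjusted p = 0.000111). Among 25 genes of the unfolded protein and integrated stress response 5 were lower and 0 higher, including Dnajb9 (-0.74) and Trib3 (-0.81). That count fell to 2 without KEAP1 replicate 1 (with 2 higher), without NEMO replicate 2 or without the trend, to 3 without NEMO replicate 1 or 3, and to 1 in the fit on 12 arrays. Metallothionein and iron genes held 4 lower of 23, among them the zinc importer Slc39a4 (-0.94). Of 15 clock genes 2 were lower, Bhlhe41 (-1.91) and Ciart (-1.52); the number was 0 without NEMO replicate 2, 1 without NEMO replicate 1, 3 without NEMO replicate 3, and 4 without KEAP1 replicate 1 (with 2 higher). Of 18 growth hormone and IGF genes 2 were higher, Igfbp2 and Igf1 (0.37, lost on leaving out any 1 of 4 arrays), and 4 were higher without KEAP1 replicate 1. Of 20 death receptor genes 3 were higher and 2 lower. Of 19 IKK and NF-kB components 1 was higher, Rel (0.53, lost on leaving out any 1 of 5 arrays), and 1 lower, Ikbkg. The shares of the IKK and NF-kB list were near the 4.02% higher and 3.76% lower of all genes. Of 4 erythroid, 9 cholangiocyte, 9 neutrophil, 12 T and NK cell, 8 B cell and 7 mesothelial or fat markers, none passed the test.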
